A study of Hypsibius exemplaris with 24 samples.

Results

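The late recovery of *Hypsibius exemplaris* from bleomycin was followed from 12 to 24 h after the drug, in 6 of the 24 libraries of a time course. All 6 came from pools of 50 whole animals that had spent 24 h in 100 µM bleomycin (BML in the labels), had been washed, and were then kept at 18 °C on agar plates with *Chlorella* as food. Of these, 3 pools were frozen 24 h after the exposure and 3 pools 12 h after it. They were taken as the columns labelled 24 h and 12 h of a table of transcript levels. The other 18 libraries hold 3 pools each of bleomycin animals at 0, 1, 3, 6 and 9 h and of a control in water alone (dose 0 µM), frozen with the 0 h pools at the end of the exposure. No unexposed pools stood on plates for 12 or 24 h, so time since bleomycin and time on the plates with food cannot be told apart.

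Tardigrades are microscopic animals known for surviving drying, freezing and high doses of radiation. Bleomycin cuts DNA strands, including double-strand breaks, and cells answer such breaks by sensing them, halting division, repairing the ends and then leaving the arrested state. The comparison of 24 h with 12 h asks how the transcripts of whole animals changed late in this course. Levels are in TPM, a share of the library in which each transcript's estimated reads are corrected for its length. Identifiers come without gene names in the table, so functions are not given, and no pathway list or tissue marker was used here.

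The 24 h libraries differed from the 12 h libraries at both ends of the abundance scale. The most abundant transcripts held a smaller summed share of the TPM at 24 h, and more transcripts were listed above 0. These measures use the deposited TPM and do not depend on any scaling between libraries. The 100 transcripts with the highest mean TPM over all 24 libraries held 25.02, 21.5 and 23.2% of all TPM in replicates 1 to 3 of 24 h, against 27.8, 28.1 and 29.1% at 12 h. The groups did not overlap. The difference was -5.09 percentage points (exact permutation test, two-sided, p = 0.1, which is the smallest p that 3 libraries against 3 can give). The same holds for the 10 highest transcripts, which held 7.24, 6.19 and 6.36% at 24 h and 10.0, 10.3 and 9.93% at 12 h. In the control, the 100 highest transcripts held 21.2 to 21.8%.

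The number of transcripts needed to account for 50% of all TPM was 420, 598 and 468 at 24 h, against 380, 370 and 309 at 12 h. The 12 h libraries therefore had the more concentrated pools of transcripts, with 309 to 380 lying below every other library of the series, where 412 was the lowest. Transcripts listed above 0 numbered 17152, 17173 and 17082 at 24 h and 15789, 16506 and 15771 at 12 h, without overlap. The 24 h libraries exceeded all others, the next being 16879 in 3 h replicate 3. TPM keeps no sequencing depth, so the part of depth in these numbers was not tested.

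**Figure D1:**
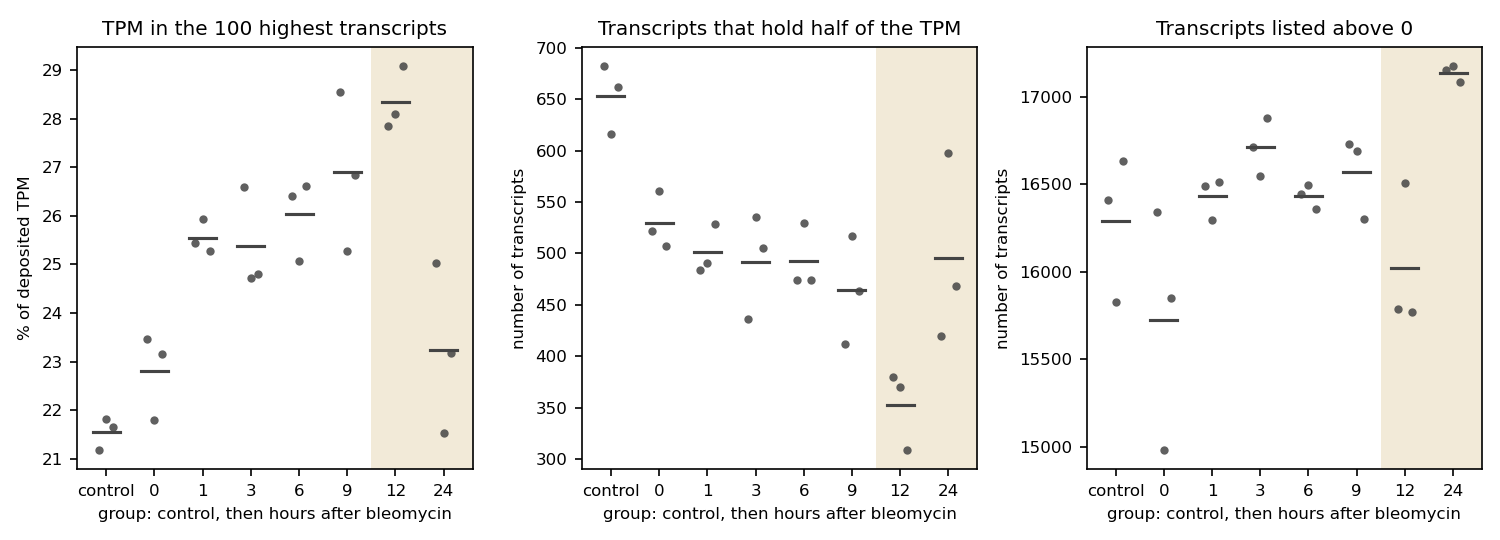
Each point is 1 library, and each bar is the mean of 3 libraries. The left plot gives the share of deposited TPM (%) in the 100 transcripts of highest mean TPM, the middle plot the number of transcripts that account for 50% of the TPM, and the right plot the number of transcripts listed above 0, by group. The vertical axes do not start at 0, and the shaded groups are 12 h and 24 h. In each plot the 24 h and 12 h points do not overlap.

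For tests of single transcripts, TPM were divided by a scale factor per library that sets the typical transcript equal between libraries, which gives scaled TPM. The factors were 0.883, 1.07 and 0.877 at 24 h and 0.868, 0.855 and 0.664 at 12 h. In the remaining groups they ranged from 0.929 to 1.18. The libraries 12 h replicate 3, with the lowest factor of the series, and 24 h replicate 2 stood apart from their groups. Across transcripts, which are not independent replicates, Pearson correlations of log2(scaled TPM + 1) were 0.937 to 0.968 within 24 h, 0.933 to 0.941 within 12 h and 0.852 to 0.948 between the groups. In deposited TPM, 9.12 to 21.3% of the total would have to be reassigned to turn a 24 h library into another, 10.6 to 14.6% within 12 h, and 16.3 to 36.1% between the groups, so the ranges overlap.

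Of 16490 transcripts tested, 3284 (19.9%) differed between 24 and 12 h (limma, adjusted p under 0.05). At 24 h 1743 (10.6%) were higher and 1541 (9.35%) were lower than at 12 h. The median log2 fold change was 1.08 among the risen and -1.04 among the fallen transcripts, against 0.03 over all tested. Rises of at least 4-fold numbered 166, and falls of at least 4-fold 76. The libraries of the groups did not overlap for 1566 of the risen and 1427 of the fallen transcripts, where 30.4% of all tested transcripts had no overlap. A fold change here is on the log2(scaled TPM + 1) scale, where the change of low transcripts is understated. In whole animals, fewer cells of a type and less RNA per cell cannot be told apart.

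The counts depended on the scaling, on the libraries that stood apart and on the pooled spread. With deposited TPM left unscaled, which moved the median log2 fold change of all tested transcripts by 0.18, 2465 were higher and 892 lower at 24 h. Changes below are thus relative to the typical transcript. Fitted to the 6 libraries alone, 503 were called, 327 higher and 176 lower. Without 12 h replicate 3 the count was 1612, without 24 h replicate 2 it was 1717, and without both it was 916, of which 440 were higher and 476 lower. A set of 387 transcripts, 230 higher and 157 lower, was called the same way in 10 fits, namely with all libraries, unscaled, quantile normalized, with the 6 libraries alone, and with each of the 6 left out. No transcript (0) was called in opposite directions in any pair of these 10 fits. In this set the median level was 49.6 scaled TPM at 24 h and 14.3 at 12 h for the higher transcripts, and 26.01 at 24 h and 80.9 at 12 h for the lower ones.

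Not being called did not show that a transcript stayed level. The 95% interval of the log2 fold change had a median half-width of 0.67. For 5894 transcripts (35.7%) the interval lay wholly within a 2-fold change in either direction. Among the 13206 transcripts not called, this was so for 5632, and for 7574 the interval reached a 2-fold change.

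The balance of rises and falls shifted along the abundance scale. The 4963 transcripts of 20 to 100 scaled TPM held more rises and more falls than any other class. In this class 772 (15.6%) rose and 663 (13.4%) fell. Among the 318 transcripts with a mean of at least 500 scaled TPM over all 24 libraries, 118 (37.1%) fell and 29 (9.12%) rose, with a median log2 fold change of -0.42. Among the 1505 transcripts of 100 to 500 scaled TPM, 354 (23.5%) fell and 149 (9.90%) rose. From 5 to 20 scaled TPM the balance was the other way, with 599 of 4546 (13.2%) risen and 305 (6.71%) fallen, at a median of 0.15. Of the 100 highest transcripts, 40 fell and 7 rose. The 318 highest transcripts held 40.4% ± 2.58 of deposited TPM at 24 h and 46.5% ± 1.06 at 12 h (SD, n = 3 each), while those of 5 to 20 scaled TPM held 5.54% ± 0.864 at 24 h and 4.13% ± 0.250 at 12 h (SD, n = 3 each).

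The numbers of falls and rises at high level moved with the setting. There were 94 falls and 51 rises in unscaled TPM, and 79 falls and 52 rises after quantile normalization, which forces equal distributions on the libraries. With 1 library left out the number of falls ranged from 60, beside 18 rises, without 12 h replicate 3, to 135, beside 25 rises, without 24 h replicate 1. There were 68 falls and 20 rises without 24 h replicate 2, and 41 falls and 14 rises without both 12 h replicate 3 and 24 h replicate 2. Falls outnumbered rises in each of these fits.

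**Figure D2:**
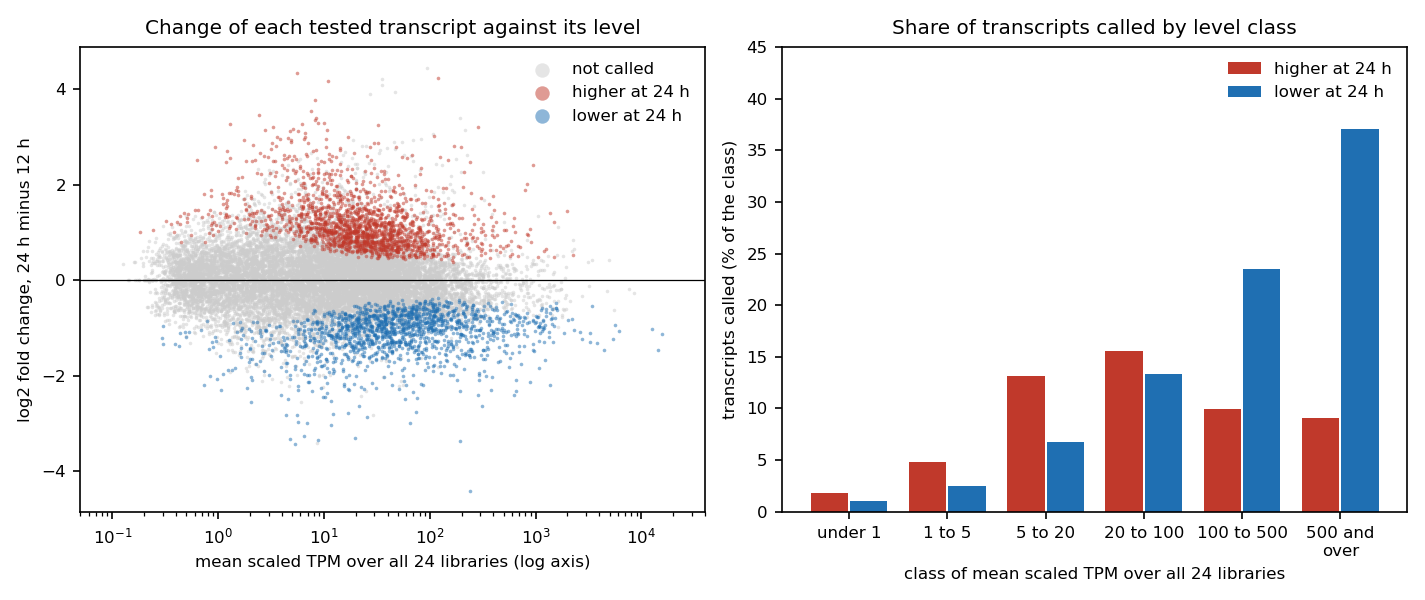
The left plot gives the log2 fold change (24 h minus 12 h) of each tested transcript against its mean scaled TPM over all 24 libraries, on a log axis. The right plot gives the share of transcripts called (%) in each level class, higher at 24 h in red and lower in blue. Falls reach 37.1% of the class of 500 scaled TPM and over, where rises reach 9.12%.

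The places of the called transcripts at the other times were described as well. These sets were chosen on their levels at 24 and 12 h, so a high or low level at those times follows from the choice, and no test is given. The 1743 risen transcripts held 11.9, 18.3 and 12.4% of deposited TPM at 24 h, 5.87, 6.75 and 4.16% at 12 h, and 8.32 to 9.29% at 9 h. By the median, their log2 level lay 0.76 above the 9 h level at 24 h and -0.35 from it at 12 h. Counted over all 8 groups, means of the risen set peaked at 24 h for 1080 (62.0%, against 18.7% of all tested transcripts). The control came next, for 297 (17.0%, against 19.9% of all tested). Means of the risen set were lowest at 12 h for 723 (41.5%, against 3468 of the 16490 tested). Next came 0 h, lowest for 652 (37.4%, against 19.8% of all tested).

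The 1541 fallen transcripts held 24.9, 18.4 and 23.1% of deposited TPM at 24 h, 37.4, 36.1 and 40.9% at 12 h, and 30.4 to 31.8% at 9 h. Their median lay -0.43 from the 9 h level at 24 h and 0.66 above it at 12 h. Over all 8 groups, means of the fallen set peaked at 12 h for 958 (62.2%, against 21.1% of all tested). The 0 h group came next, for 244 (15.8%, against 15.1% of all tested). They were lowest at 24 h for 567 (36.8%, against 13.8% of all tested). Lowest in the control were 487 (31.6%, against 19.7% of all tested). As for the risen set, the shares outside 12 and 24 h cannot be read as an excess or a deficit. The level at 9 h lay between those of 24 and 12 h for 61.4% of the risen and 58.7% of the fallen transcripts. It lay beyond the 12 h level, away from 24 h, for 488 of the 1743 risen and 291 of the 1541 fallen. It lay beyond the 24 h level for 10.6% of the risen and 22.5% of the fallen transcripts. The same shares over all tested transcripts were 30.0% between, 31.6% beyond 12 h and 37.9% beyond 24 h.

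**Figure D3:**
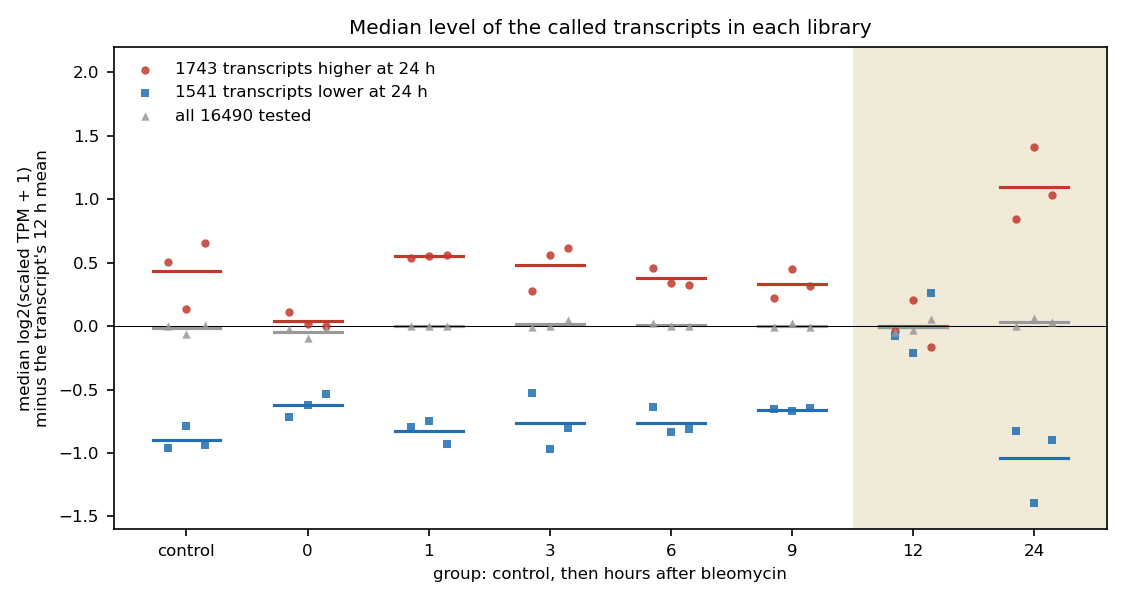
Each point is the median over a set of transcripts in 1 library, of log2(scaled TPM + 1) minus the transcript's own mean at 12 h, and each bar is the mean of 3 libraries. Red circles are the 1743 transcripts higher at 24 h, blue squares the 1541 lower at 24 h, grey triangles all 16490 tested, and the shaded groups are 12 h and 24 h. At 24 h the risen set lies at 0.84 to 1.41 and the fallen set at -1.40 to -0.82, with replicate 2 the most extreme in both.

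The transcripts with the largest rises were BV898_03817.t02 and BV898_08191.t01. BV898_08191.t01 was at 550.4, 485 and 365 scaled TPM in replicates 1 to 3 of 24 h, against 27.0, 26.8 and 18.3 at 12 h. All 3 libraries of 24 h stood above all of 12 h, as the choice of named transcripts required. Its log2 fold change was 4.22 (SE, the standard error, 0.81; adjusted p = 0.00182, limma), a ratio of means of 19.4. The earlier course was not flat. It was at 153, 9.32 and 398 in the controls, between 11.6 and 32.8 at 0 h, between 12.5 and 20.01 at 1 h, at 99.7, 265 and 204 at 3 h, and between 15.97 and 41.1 at 6 and 9 h. BV898_08191.t01 was thus high at 3 h, low from 6 to 12 h and high again at 24 h. BV898_03817.t02 was at 30.0, 20.4 and 11.3 at 24 h while every 12 h library listed it at 0 (limma, adjusted p = 0.0078). At 9 h it was at 39.3, 0.318 and 5.73, so it had been present before. Its adjusted p was 0.0810 without both 12 h replicate 3 and 24 h replicate 2 (limma). It shares its locus with BV898_03817.t01, and the log2 ratio of t01 to t02 changed by -4.45 (limma, adjusted p = 0.0598). How the reads of this locus were split between isoforms was not tested.

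Among falls, the largest folds were in BV898_04554.t01 and BV898_17738.t01. BV898_04554.t01 was at 20.5, 0 and 40.9 scaled TPM in replicates 1 to 3 of 24 h, against 241, 94.6 and 365 at 12 h. Its log2 fold change was -4.40 (SE 0.91; adjusted p = 0.00309, limma), which takes in the 0 listed in 24 h replicate 2. By the ratio of means 12 h was 11.4 times 24 h, less than the 24.7 times of BV898_17738.t01. BV898_04554.t01 had been at 643, 689 and 421 at 0 h and at 102, 98.3 and 58.4 at 9 h. Its 24 h libraries lay below the 71.1 to 88.5 of the controls. BV898_17738.t01 was at 0.974, 0.963 and 0 at 24 h, against 13.3, 16.6 and 17.9 at 12 h (limma, adjusted p = 0.00213). All 0 h libraries listed it at 0. With the 6 libraries fitted alone the adjusted p of BV898_04554.t01 was 0.111 (limma).

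The largest differences in abundance were falls of the most abundant transcripts. BV898_16263.t01 was at 12358, 5476 and 10571 scaled TPM at 24 h, against 24754, 19270.5 and 31234 at 12 h. Its log2 fold change was -1.46 (SE 0.27; adjusted p = 0.00117, limma). In deposited TPM it was at 10913, 5860 and 9275 at 24 h and at 21496, 16468 and 20753 at 12 h, again without overlap. The 24 h levels overlapped those of 9 h, which were 12861, 11177 and 7763 scaled TPM, so that 12 h stood above both. It was not the only high time. The 0 h libraries were at 17634, 20364 and 19541 scaled TPM and the 3 h libraries at 21541, 12127 and 18103, and both ranges overlap that of 12 h. In deposited TPM the 0 h libraries were at 18908, 22547 and 20920.

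BV898_16259.t01 had 15919.7, 8635 and 14088 scaled TPM at 24 h, against 22588, 22527 and 32157 at 12 h. Its log2 fold change was -1.03 (SE 0.25; adjusted p = 0.00667, limma). It was at 15287, 12566 and 11522 at 9 h and at 7000.0, 7572 and 9349 in the controls. By their means alone, and without a test, the 2 transcripts stood differently to their controls. The libraries of 24 h and control overlapped for both. BV898_16263.t01 was at 10263, 13269 and 13309 in the controls, and BV898_16259.t01 in 24 h replicate 2 lay below its highest control. At 24 h BV898_16263.t01 averaged 9469 and its control 12280, while BV898_16259.t01 averaged 12881 and its control 7973. Both calls were lost with quantile normalization, with adjusted p of 0.175 for BV898_16263.t01 and 0.772 for BV898_16259.t01, and with the 6 libraries alone, with 0.0718 and 0.118 (limma). That of BV898_16259.t01 was also lost without 24 h replicate 2, at 0.0502 (limma). Whether such transcripts share reads with near-identical copies was not tested.

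Among rises in abundance, BV898_03573.t01 was at 3311, 4986 and 3659.8 scaled TPM at 24 h and at 1086, 2465 and 1123 at 12 h (limma, log2 fold change 1.44, SE 0.49, adjusted p = 0.0424). It had been at 123, 41.2 and 63.8 at 0 h and at 3341, 3122 and 3071 at 1 h. This call was lost with any 1 of the 24 h libraries, or 12 h replicate 1 or 3, left out, at adjusted p of 0.0510 to 0.160 (limma). BV898_06070.t01 was at 2544, 3252 and 2381 at 24 h and at 876, 1531 and 792 at 12 h. Its log2 change was 1.40 (SE 0.23; adjusted p = 5.67e-04, limma). Its 24 h libraries exceeded every other library of the series, where 1867 was the highest. With the 6 libraries alone its adjusted p was 0.0545 (limma).

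The changes with the smallest adjusted p were not the largest. BV898_03807.t01 was at 21.7, 17.1 and 20.4 scaled TPM at 24 h, against 325, 187 and 155 at 12 h. The log2 fold change was -3.36 (SE 0.21; adjusted p = 1.13e-08, limma), and 12 h was 11.3 times 24 h by the ratio of means. BV898_03807.t01 moved in steps over the course. It was at 202 to 283 in the controls and 357 to 441 at 0 h, at 44.9 to 67.0 at 1 and 3 h, at 249.8 to 342 at 6 and 9 h, and lowest at 24 h. BV898_15602.t01 was at 139.9, 77.3 and 89.4 at 24 h, against 520.2, 409.7 and 545 at 12 h (limma, log2 fold change -2.29, SE 0.20, adjusted p = 2.50e-06). In all other libraries BV898_15602.t01 was between 220.6 and 585, above the 139.9 that was the highest of 24 h.

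BV898_02362.t01 was at 106, 142 and 109.9 scaled TPM at 24 h, against 30.6, 38.9 and 38.6 at 12 h (limma, log2 fold change 1.69, SE 0.15, adjusted p = 2.50e-06). It had been at 68.7 to 113 in the control and from 0 to 3 h, and at 43.6 to 64.0 at 6 and 9 h. The 12 h libraries were thus the lowest of the course for BV898_02362.t01, and 24 h was back in the earlier range or above it. BV898_03807.t01, BV898_15602.t01 and BV898_02362.t01 belonged to the set of 387. BV898_06598.t02, next by adjusted p, is described with the isoforms.

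**Figure D4:**
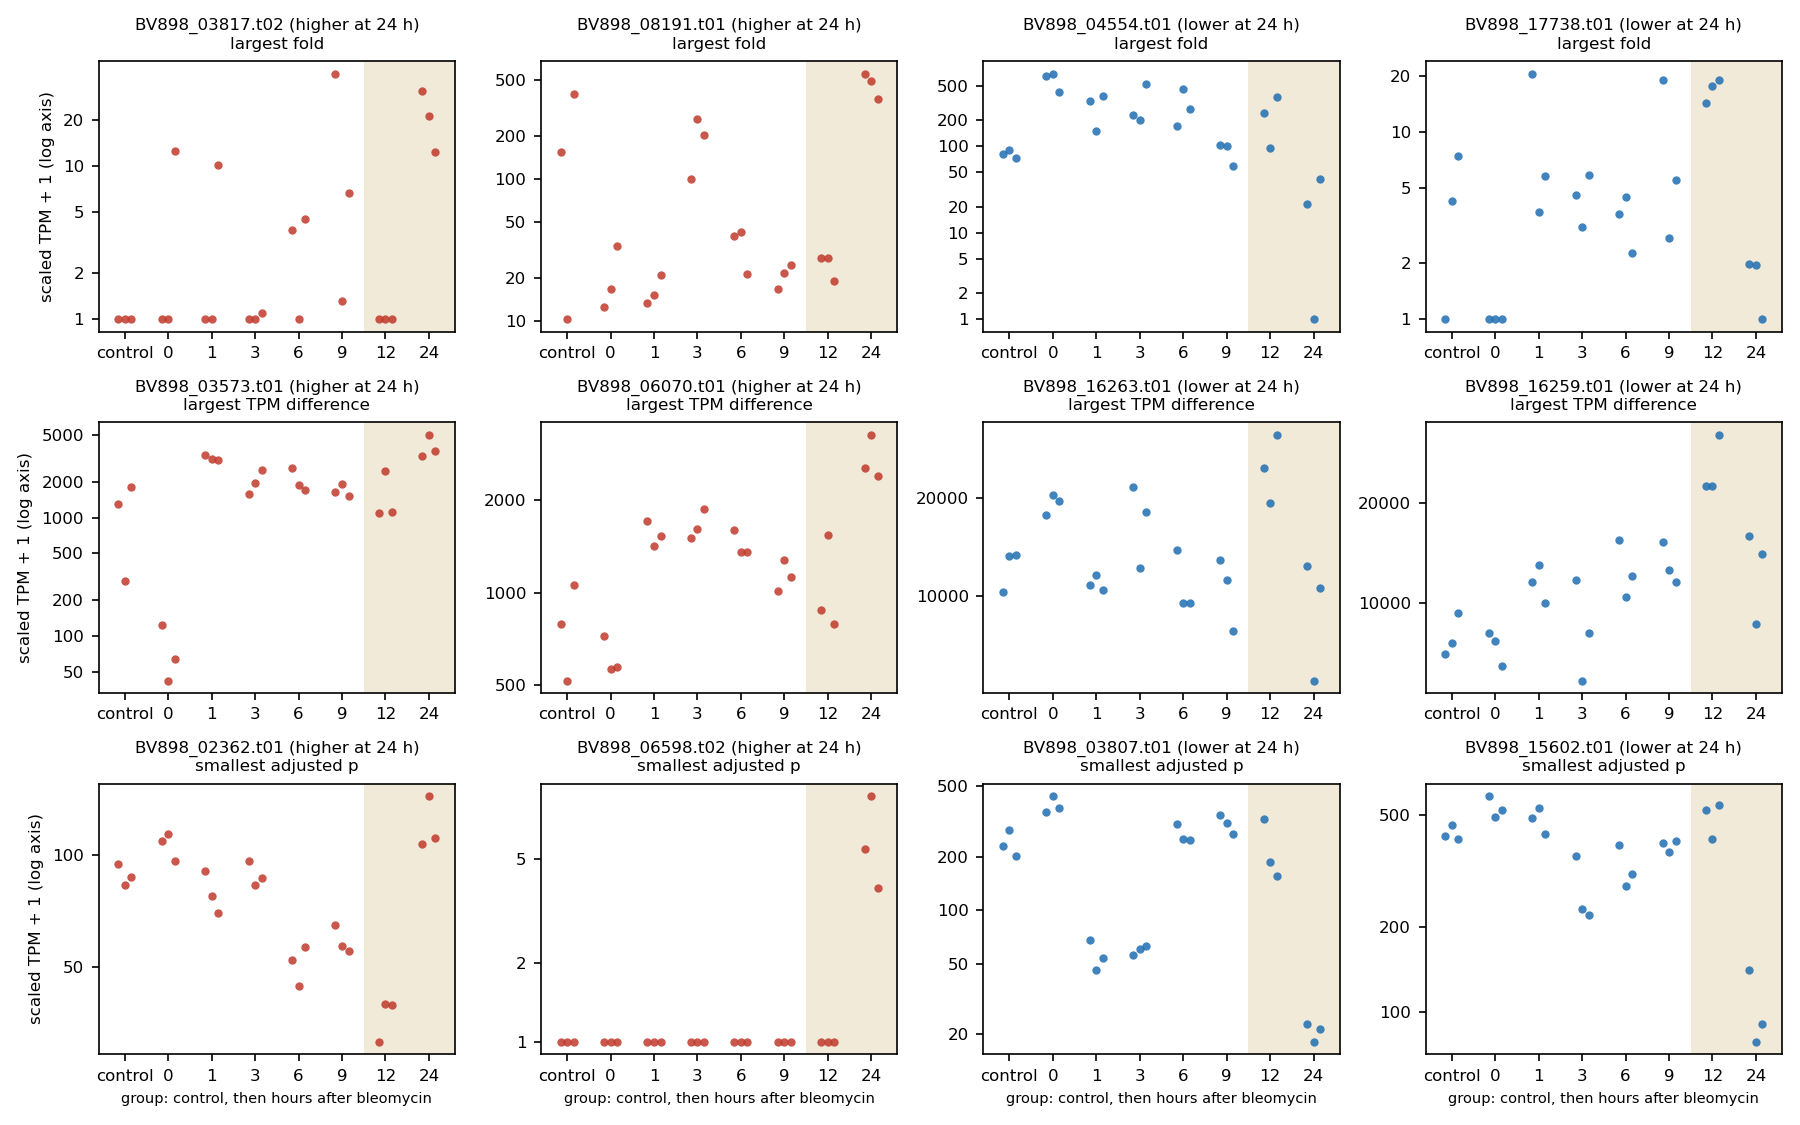
Scaled TPM + 1 on a log axis in each of the 24 libraries, by group, for the 12 transcripts named for the largest fold (top), the largest difference in scaled TPM (middle) and the smallest adjusted p (bottom) between 24 and 12 h. Each point is 1 library, red for transcripts higher and blue for those lower at 24 h, and the shaded groups are 12 h and 24 h. The 24 h and 12 h points do not overlap in any plot, as the choice required.

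Some transcripts were listed at 0 in 1 of the groups. At 24 h 192 transcripts were above 0 in all 3 libraries that were listed at 0 in all 3 of 12 h, and 18 were the reverse. Most were low, with a median of 0.533 scaled TPM at 24 h for the 192 and 1.48 at 12 h for the 18. Of the 192, 10 averaged at least 5 scaled TPM, and 23 of the 75 that were tested were called higher, where 10.6% of all tested transcripts were. The direction follows from how the 192 were chosen, so nothing is read from this count. Only 2 of the 192, BV898_06598.t02 and BV898_17900.t01, were listed at 0 in all other libraries of the series, and BV898_17900.t01 reached no more than 0.513 scaled TPM. A listed 0 does not tell absence from a failed estimate. The highest of the 192 were BV898_03817.t02 and BV898_12671.t01. The highest of the reverse set were BV898_02674.t01, listed at 0 at 24 h and at 5.33, 12.97 and 9.72 at 12 h (limma, adjusted p = 0.00144), and BV898_08052.t01, listed at 0 at 24 h and at 7.14, 6.56 and 13.4 at 12 h (limma, adjusted p = 0.00139). Outside 24 h, BV898_02674.t01 was above 2 scaled TPM in every library.

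Summed per locus, 3401 of 15820 loci (21.5%) differed, 1800 higher and 1601 lower at 24 h (limma, adjusted p under 0.05). Locus sums avoid the split of reads between isoforms, but only 620 loci had at least 2 isoforms in the filter. The balance of rises and falls was close to that of single transcripts, which therefore follows largely from the same values. In 3 loci, isoforms were called in opposite directions, namely BV898_12671, BV898_13423 and BV898_16150. Both calls at BV898_16150 were lost without 24 h replicate 2 and without 12 h replicate 3, at adjusted p of 0.0834 and 0.0589 for BV898_16150.t01 and 0.0524 and 0.125 for BV898_16150.t02 (limma). With unscaled TPM the adjusted p was 0.113 for the falling isoform BV898_12671.t02 and 0.120 for BV898_16150.t02 (limma), so the opposite calls at these loci depended on the scaling. In 17 loci at least 2 isoforms were called the same way.

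The ratio of isoforms within a locus was tested for 470 loci with 570 tests, of which 4 (0.702%) had an adjusted p under 0.05 (limma), 2 in each direction, with 83 at an unadjusted p under 0.05. At BV898_13423 the isoform t01 made up 84.4, 93.3 and 88.6% of the locus at 24 h, against 60.4, 45.5 and 40.4% at 12 h. The log2 ratio of t01 to t02 changed by 3.00 (SE 0.47; adjusted p = 0.00139, limma). Both isoforms took part. BV898_13423.t01 rose to 62.6, 109 and 73.1 scaled TPM at 24 h, against 30.6, 14.9 and 15.4 at 12 h (limma, adjusted p = 2.17e-05). BV898_13423.t02 fell to 11.6, 7.87 and 9.45 at 24 h, against 20.1, 17.9 and 22.8 at 12 h (limma, adjusted p = 0.0115). The fall of BV898_13423.t02 was lost without 24 h replicate 2 and without 12 h replicate 3, at 0.0594 and 0.0575 (limma, adjusted p). BV898_13423.t01 had been low before, at 24.9 to 27.9 at 1 h between 67.7 to 79.0 at 0 h and 69.8 to 78.5 at 3 h. It was at 27.4 to 42.3 at 6 and 9 h. The share of t01 was 82.9 to 85.6% in the controls and 80.8 to 89.1% at 3 h, so the 24 h share was near those.

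At BV898_12671 the isoform t01 was at 8.65, 4.68 and 15.3 scaled TPM at 24 h and listed at 0 at 12 h, and made up 48.6, 27.6 and 64.9% of the locus at 24 h (limma, adjusted p of the ratio 4.01e-04). In the other groups it was above 0 only in 1 h replicate 1, at 2.74. Outside 24 h the pooled spread of this ratio thus came almost only from BV898_12671.t02. BV898_12671.t02 fell to 9.16, 12.3 and 8.26 at 24 h, against 17.9, 20.3 and 18.3 at 12 h (limma, adjusted p = 0.0226), a call lost without 24 h replicate 3, 12 h replicate 2 or 12 h replicate 3, at 0.0531 to 0.0783. With the 6 libraries alone the adjusted p of BV898_12671.t02 was 0.105 (limma). At BV898_06598 the isoform t01 made up 50.03, 73.6 and 70.7% of all isoforms at 24 h and 100% at 12 h. Isoform t03 did not pass the filter, so the tested ratio was that of t01 to t02 alone (limma, adjusted p of the ratio 0.0154). Without 24 h replicate 1 this was 0.0615, and without 12 h replicate 3 it was 0.0517 (limma). Isoform BV898_06598.t02 was at 4.46, 7.67 and 2.87 at 24 h and listed at 0 in all other 21 libraries. BV898_06598.t03 had the same deposited value as t02 in replicates 1 and 3 of 24 h, 3.94 and 2.52 TPM, and was listed at 0 in replicate 2. How the reads of this locus were split between them was not tested.

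At BV898_07014 the isoform t03 made up 45.3, 0 and 5.93% at 24 h and 82.8, 69.0 and 56.7% at 12 h (limma, adjusted p = 0.0197). It was at 10.2, 0 and 1.41 scaled TPM at 24 h, against 23.7, 22.3 and 16.8 at 12 h. The change of ratio was lost without 24 h replicate 2, 24 h replicate 3 or 12 h replicate 1, at adjusted p of 0.0645 to 0.0892 (limma). With the 6 libraries alone limma called 0 of the 570 ratios, with 57 at an unadjusted p under 0.05. BV898_06598.t02 itself had an adjusted p of 2.91e-06 with all libraries and of 0.0254 with the 6 alone (limma). Every library outside 24 h listed it at 0, so those groups added no spread to the pooled estimate. These p-values therefore do not measure the spread at 24 h alone, and the rank of this transcript by adjusted p rests partly on listed 0 values.

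**Figure D5:**
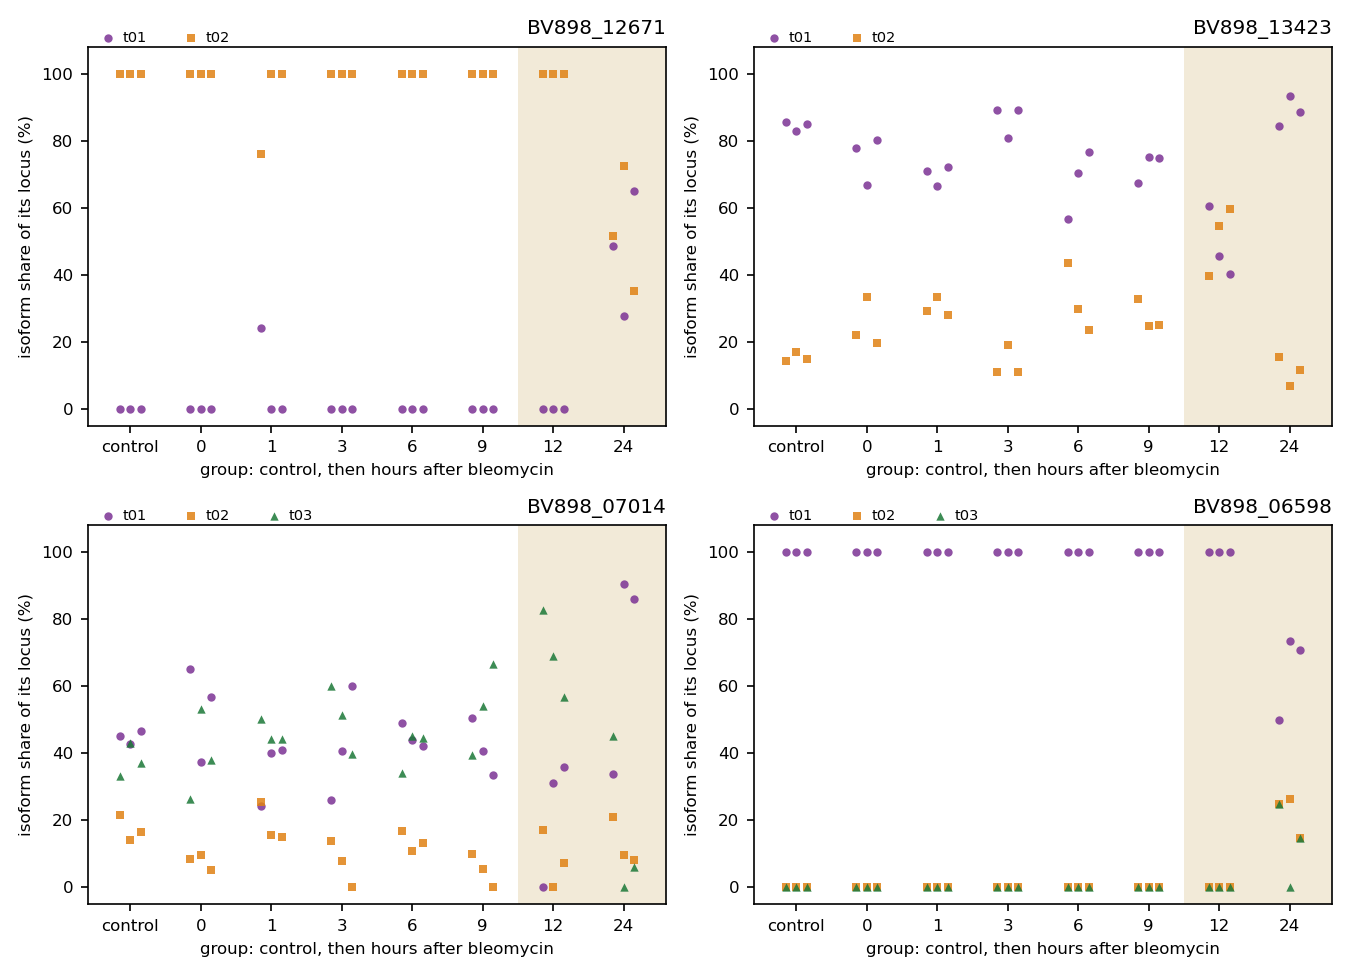
Share of each isoform in the summed scaled TPM of its locus (%), in each of the 24 libraries, by group, for the 4 loci with a called change of isoform ratio. Each point is 1 library, isoforms differ in colour and shape, and the shaded groups are 12 h and 24 h. At BV898_13423 isoform t01 lies at 84.4 to 93.3% at 24 h and at 40.4 to 60.4% at 12 h.

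Among transcripts named in an earlier account of these data for their rise after bleomycin, BV898_14257.t01 was at 71.0, 38.6 and 82.4 scaled TPM at 24 h, against 163, 127 and 219 at 12 h. Its log2 fold change was -1.43 (SE 0.30; adjusted p = 0.00295, limma). The deposited TPM were also apart, with 62.7, 41.3 and 72.3 for 24 h against 141.5, 109 and 145 for 12 h. The control was at 9.03 to 15.7 scaled TPM, below every library of 24 h. The call was lost with the 6 libraries alone, at an adjusted p of 0.0580, and without both 12 h replicate 3 and 24 h replicate 2, at 0.105 (limma).

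BV898_10457.t01 was at 514, 209 and 623 scaled TPM at 24 h and at 772, 620.4 and 1259 at 12 h, and these ranges overlap by 1 library of each group. The log2 fold change of -1.05 (SE 0.34) had an adjusted p of 0.0334 in limma, which was 0.0668 with unscaled TPM. It was -0.58 without 24 h replicate 2, at an adjusted p of 0.245, and leaving out 12 h replicate 1 or 3 gave adjusted p of 0.0570 and 0.186 (limma). BV898_04740.t01 was at 459, 175 and 514 at 24 h and at 320.4, 353 and 542 at 12 h. The log2 fold change was -0.19, with a 95% interval of -0.93 to 0.55 (limma, adjusted p = 0.754), and it changed sign with unscaled TPM. Of these, only BV898_14257.t01 kept its 24 h and 12 h libraries apart. The controls averaged 0.348 scaled TPM for BV898_10457.t01 and 0.318 for BV898_04740.t01, and every 24 h library of both lay above them.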

How the data were processed

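RNA from 24 pools of whole animals was sequenced, 3 pools in each of 8 groups. Sample titles gave the groups and replicate numbers, and descriptions matched the columns. Nothing in the labels says that replicates came from separate cultures, so p-values measure only the spread between these pools. The authors deposited TPM per transcript, not normalized between libraries per the deposited table's name. The submitters' processing notes name the tools RSEM 1.2.26, Bowtie2 2.2.9, DESeq2 1.22.2 and FastQC 0.11.3 without a role. Counting error is unknown, since TPM holds no depth. The build is not given in the sources used here.

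A scale factor per library, the median over 12190 transcripts above 0 everywhere of TPM against their geometric mean, was divided out. The filter of 1 TPM or more in 3 or more libraries kept 16490 of 20853 transcripts. The model on log2(scaled TPM + 1) was fitted with limma 3.58.1 in R 4.3.3 to all 24 libraries with a mean per group (eBayes, trend and robust), two-sided, with Benjamini-Hochberg adjustment over all features and a threshold of 0.05. Isoform ratios were log2((isoform + 1)/(other isoforms + 1)) over isoforms that passed the filter, at loci averaging 5 or more scaled TPM in the 6 libraries. The fit was tested on simulated data. Alternatives covered the scaling, pseudocount, filter, libraries, weights and block. No pair of libraries was identical (0 pairs). Figures used matplotlib 3.10.9 in Python 3.11.15.

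Named transcripts are the 2 rises and 2 falls with the largest log2 fold change, the largest difference in scaled TPM, or the smallest adjusted p, if past the threshold, at a higher-group mean of 5 or more scaled TPM, and without overlap between the libraries. Added were the 2 highest transcripts listed at 0 in either group, the 2 largest changes of isoform ratio each way, and 3 transcripts of an earlier account. The comparison, the rule and the lists were chosen with earlier results of these data known. BV898_16150 and the transcripts seen at 24 h alone were named after their values were seen.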

Additional observations from a re-analysis of the deposited data

How the results depend on the processing

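The count of 3284 transcripts stayed within 1.5 times, at 2899 to 3465, under other scalings, pseudocounts and filters, without the controls, with quality weights, and with neither trend nor robust variance. Replicate numbers were not taken as pairs, since the labels state no paired design. Same-numbered 24 and 12 h libraries had residual correlations of 0.03, 0.23 and 0.20, against -0.31 to 0.20 between different numbers. The 12 h replicates 2 and 3 correlated best with the same number at 24 h, and 12 h replicate 1 with 24 h replicate 2. These values do not settle whether the numbers mark pairs. With the number as a block, 3458 transcripts, 3577 loci and 4 isoform ratios were called. The 6 libraries alone gave 503 transcripts, 776 loci and 0 isoform ratios (limma, 57 at an unadjusted p under 0.05). Requiring a 2-fold change left 1866 transcripts and 1866 loci, and testing against a 2-fold change left 17 transcripts, 7 higher and 10 lower. Leaving out 1 library gave 1612 to 3632 transcripts, 1694 to 3776 loci, 3 to 13 isoform ratios, and, at 500 scaled TPM and over, 60 to 135 falls and 18 to 27 rises. Without 24 h replicate 2 and 12 h replicate 3, a choice made after seeing the data, these were 916 transcripts, 967 loci, 41 falls and 14 rises. Rises at that level numbered 51 unscaled and 52 with quantile normalization, and a pseudocount of 5 gave 15 isoform ratios. The causes of these shifts were not tested.

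Over 579 values of named transcripts and isoform ratios under the alternatives, 502 kept direction and call, 63 lost the call, 6 gained it and 8 changed sign. Many were named for their fold or adjusted p in the main fit, and an uncalled value that stayed uncalled counts as kept. The kept share is therefore no independent support. BV898_04740.t01 had a log2 fold change of 0.059 unscaled, 0.050 with quantile normalization, 0.31 with quality weights, -0.48 to 0.30 with 1 library left out, and 0.53 without both libraries. BV898_06598.t01 ranged from -0.086 to 0.50 and BV898_07014.t02 from -0.081 to 1.203 with 1 library left out. Depth is unknown, and changes of transcripts near 0 are the least certain.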
